A study of Mus musculus with 10 samples.

Results

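The inflammasome genes described here are 10 genes of cytosolic danger sensing in mouse: the sensors Nlrp3, Nlrp1b, Nlrc4, Naip5 and Mefv, the NLRP3 partner kinase Nek7, the adaptor Pycard, the proteases Casp1 and Casp4, and the pore protein Gsdmd. They were chosen by symbol, and all 10 were found among the 32074 genes of the expression table. Their messenger RNA was measured by RNA sequencing in 10 cultures of primary microglia, the resident macrophages of the brain, taken from the cortex of CD-1 mouse pups at postnatal day 2 to 4. CD-1 is an outbred stock, and the labels name no transgene, no deletion and no sex. For 24 h, 4 cultures received phosphate-buffered saline (PBS), 3 received 1 µg of small extracellular vesicles (sEVs) taken from serum after a sham operation, and 3 received the same amount of serum sEVs taken after spared nerve injury (SNI), a surgical model of neuropathic pain. All groups shared a medium with serum from which exosomes had been removed. The labels give neither the number of pups behind a culture nor the number of donor mice behind a vesicle preparation, so whether the spread between libraries covers more than 1 preparation is not known.

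Inflammasomes are protein platforms that form in the cytosol when a sensor meets a sign of infection or damage. NLRP3 answers many forms of membrane damage and ion loss with the help of NEK7, NAIP5 binds bacterial flagellin and passes the signal to NLRC4, NLRP1B is cleaved by anthrax lethal factor, and pyrin, the product of Mefv, answers certain bacterial toxins. ASC, the product of Pycard, joins sensors to caspase-1, which cuts the precursors of interleukin-1β and interleukin-18. Caspase-11, the product of mouse Casp4, binds bacterial lipopolysaccharide directly, and both caspases cut gasdermin D, whose fragment forms pores and causes a lytic cell death called pyroptosis. In macrophages and microglia, transcription of Nlrp3 and Il1b is known as the priming step, which precedes assembly. RNA levels do not show whether an inflammasome assembled.

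All 12 of the fixed markers of microglia and macrophages were at 1 TPM (a transcript level per gene length, scaled to the same total in every library) or more in each group. Their summed level was 8518 to 9119 TPM in PBS, 9692 to 10250 TPM with sham sEVs and 9361 to 9681 TPM with SNI sEVs. The markers that set microglia apart from other macrophages were low, with group means of 3.65 to 6.81 TPM for P2ry12, 5.17 to 6.92 TPM for Tmem119 and 5.07 to 9.80 TPM for Sall1. Between 14117 and 14973 genes reached 1 TPM in a library. PBS replicate 1 stood apart on the second principal component at 31.0, where the other 9 libraries lay between -15.6 and 3.85. Among the members it held the lowest PBS level of Nlrp3, Nlrp1b, Naip5, Mefv, Nek7, Casp1 and Casp4, so results that change without it are given with both values.

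On the GRCm38 build with GENCODE vM21 the members lie apart from each other except for 1 neighbouring pair. Casp1 spans chr9:5298517-5307265 and Casp4 chr9:5308828-5336783, both on the plus strand, with 1562 bases between them. Nlrp3 spans chr11:59541568-59566956 on the plus strand and Nlrp1b chr11:71153102-71230733 on the minus strand. Gsdmd lies at chr15:75862327-75867408 on the plus strand. The other members are on the minus strand, with Pycard at chr7:127989708-127993867, Nek7 at chr1:138482875-138620141, Nlrc4 at chr17:74425438-74459142, Naip5 at chr13:100211739-100246323 and Mefv at chr16:3707218-3718097. Reads of Naip5 are the hardest to place. Of its 50-base transcript windows, 36.9% also occur in transcripts of other genes, foremost Naip6, Naip3 and Naip1. For Nlrp1b this share is 1.45%, with Nlrp1a and Nlrp1c-ps, and for Nlrp3, Casp1, Gsdmd and Mefv it is 0. Pycard shares 485 exon bases with Gm45205 and Nek7 shares 118 exon bases with the antisense Gm28501, each on the opposite strand. Neither the division of shared reads nor the strand setting of the count is given in the sources used here, so the levels of Naip5, and to a smaller degree of Pycard, Nlrp1b and Nek7, are uncertain in that respect. Nlrp1b and the Naip genes also differ in sequence between mouse strains, and the effect of CD-1 alleles on alignment was not tested.

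RefSeq promoter windows on GRCm38.p6, from 250 bases before to 50 after a start site, matched 9 of the 10 members in 12 windows, with none for Gsdmd. They are shown for the neighbours Casp1 and Casp4 and for Nlrp3, 3 members that rose with sham sEVs against PBS below, and capitals mark matches to a 10-base NF-kappaB motif on either strand. All 3 are written along the plus strand, 5′ to 3′, with Casp4 at chr9:5308599-5308898, Casp1 at chr9:5298267-5298566 and Nlrp3 at chr11:59541319-59541618.
Casp4: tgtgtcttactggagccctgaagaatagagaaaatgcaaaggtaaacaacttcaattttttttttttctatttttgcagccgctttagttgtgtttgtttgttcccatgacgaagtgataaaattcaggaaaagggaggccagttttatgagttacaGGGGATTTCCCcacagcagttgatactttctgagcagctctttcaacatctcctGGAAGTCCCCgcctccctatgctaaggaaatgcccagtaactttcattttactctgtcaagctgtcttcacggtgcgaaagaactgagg
Casp1: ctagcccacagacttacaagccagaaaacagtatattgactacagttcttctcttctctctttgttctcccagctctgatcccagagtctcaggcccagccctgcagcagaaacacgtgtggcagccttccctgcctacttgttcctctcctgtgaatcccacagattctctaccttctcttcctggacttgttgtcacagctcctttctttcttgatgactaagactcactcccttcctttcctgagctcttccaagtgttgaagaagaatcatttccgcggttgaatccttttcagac
Nlrp3: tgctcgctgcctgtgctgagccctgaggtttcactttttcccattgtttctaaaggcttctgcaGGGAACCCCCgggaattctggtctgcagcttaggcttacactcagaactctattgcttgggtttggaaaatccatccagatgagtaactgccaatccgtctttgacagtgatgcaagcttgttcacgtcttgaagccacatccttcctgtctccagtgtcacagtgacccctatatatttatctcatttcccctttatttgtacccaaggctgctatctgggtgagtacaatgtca
In the Casp4 window the motif matched at bases -93 to -84 and -92 to -83, which overlap each other, and again at -39 to -30 from the start site. The Nlrp3 match lies at -186 to -177, and the Casp1 window held none. Over the members, 4 of 12 windows held the NF-kappaB motif, those being both windows of Casp4 and 1 each of Nlrp3 and Naip5, against 8.46% of 32851 RefSeq promoter windows. The windows of Casp4 overlap almost wholly and hold the same sites, so these are matches in 3 genes, and a further window of Nlrp3 held none. The PU.1 motif GAGGAAGT was in 2 of 12, in Nlrp1b and Pycard, against 3.20% of all windows. No member window held the interferon-stimulated response element core, which is GAAA, a pair of any bases and GAAA (3.44% of all windows), the gamma-activated site TTCNNNGAA (8.30%) or the AP-1 motif TGANTCA (7.81%). Both strands were searched. A match describes these letters only, and no binding was measured.

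Casp1 was the most abundant member in each group and Gsdmd the second, and the sensors other than Nlrp3 were the scarcest. In PBS the mean levels ran from Casp1 at 146 ± 22.4 TPM (SD, n = 4) through Gsdmd at 101 ± 3.28, Pycard at 65.8 ± 1.28, Nek7 at 60.03 ± 8.94, Nlrp3 at 37.6 ± 3.17 and Casp4 at 35.6 ± 3.58 to Naip5 at 12.9 ± 2.01 TPM. Nlrp1b followed at 4.06 ± 0.545 TPM, Nlrc4 at 0.859 ± 0.0601 TPM and Mefv at 0.0811 ± 0.0678 TPM. The neighbours Pycard and Nek7 overlapped between PBS libraries, as did Nlrp3 and Casp4, while the other neighbours did not. With sham sEVs the order became Casp1, Gsdmd, Casp4, Nlrp3, Pycard, Nek7, Naip5, Nlrp1b, Nlrc4 and Mefv, with no overlap between neighbours in 3 libraries. Casp4 thus moved from the sixth place to the third and Nek7 from the fourth to the sixth. With SNI sEVs the order differed from that in PBS only in that Casp4 stood before Nlrp3, and only Pycard and Nek7 overlapped. Among all 32074 genes, 3.41% had a higher mean than Casp1 in PBS, 1.44% with sham sEVs and 2.81% with SNI sEVs.

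**Figure D1:**
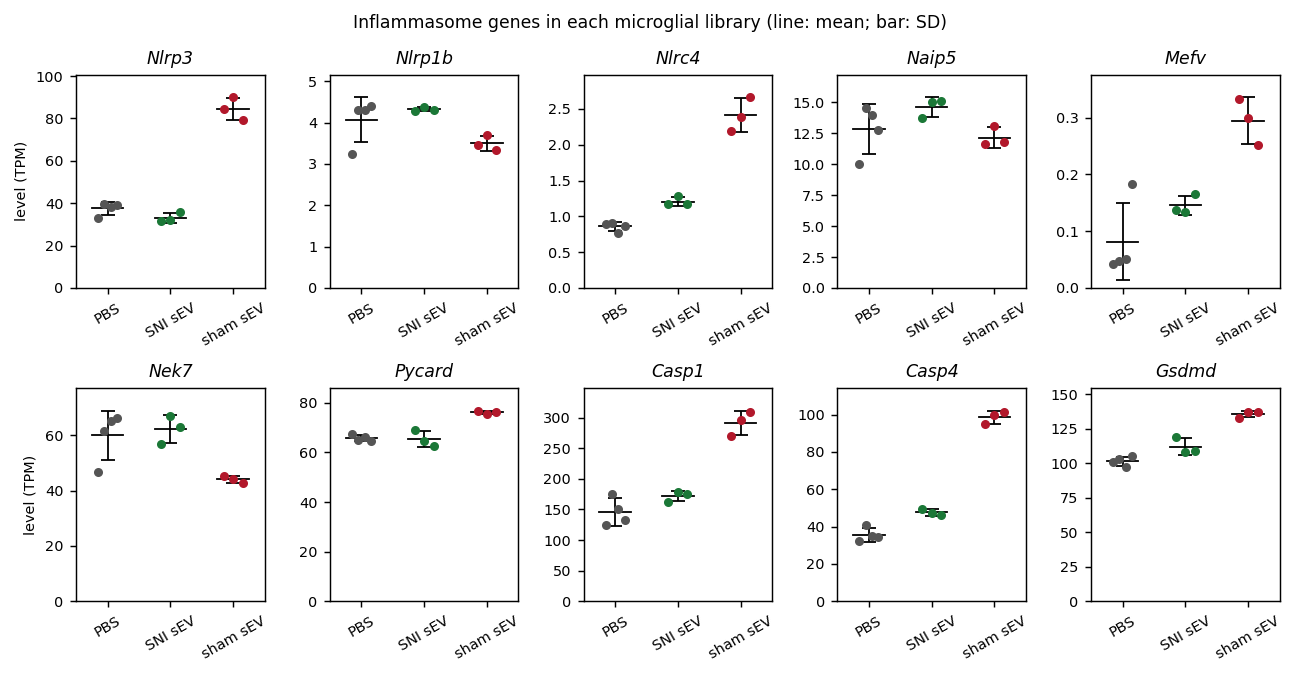
Level of each of the 10 inflammasome genes in TPM (vertical axes start at 0 and differ between panels), with 1 point per library, a line at the group mean and a bar of 1 SD, for PBS (n = 4), SNI sEVs (n = 3) and sham sEVs (n = 3). Nlrp3, Nlrc4, Casp1, Casp4, Gsdmd, Pycard and Mefv are above the PBS range in the 3 sham-sEV libraries, whereas Nek7 is below it and Nlrp1b and Naip5 overlap it.

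With sham sEVs, transcripts of the sensor Nlrp3, the sensor-adaptor Nlrc4, both inflammatory caspases, gasdermin D and ASC were higher than in PBS, and Nek7 was lower. Nlrp1b and Naip5 did not pass the test. Of 9 members tested, 6 rose and 1 fell, where over all 14806 genes tested 16.5% rose and 52.5% fell (68.9% in either direction) by limma with Benjamini-Hochberg adjusted p under 0.05. One of the 6, Nlrc4, was tested only because the vesicle groups were higher, so its call adds nothing to this count. The median log2 fold change was 0.42 over the 9 members tested and -0.25 over all genes tested. The median of the members includes Nlrc4, and none was formed without it. Counted over all 10, 7 were higher in every sham-sEV library than in every PBS library, against 16.7% of genes tested, and 1 was lower, against 49.8% (66.5% of genes tested without overlap in either direction). The 7 include Mefv, which is outside the genes tested, and Nlrc4, and neither adds to this count.

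Among the sensors, Nlrp3 stood at 32.9, 39.8, 38.4 and 39.3 TPM in the 4 PBS libraries and at 84.4, 89.9 and 79.3 TPM in the 3 sham-sEV libraries. The lowest sham-sEV library was thus well above the highest PBS library. Nlrp3 rose 2.22-fold on the scale of TPM + 1, a log2 fold change of 1.15 ± 0.077 (SE, limma adjusted p = 1.1e-07). Nlrc4, which carries the signal of the NAIP sensors to caspase-1, stood at 0.894, 0.908, 0.774 and 0.862 TPM in PBS and at 2.20, 2.39 and 2.66 TPM with sham sEVs. The groups did not overlap, and Nlrc4 rose by a log2 fold change of 0.88 ± 0.077 (SE, limma adjusted p = 1.3e-06). Its PBS mean is under the 1 TPM that the mean over all libraries had to reach. The added 1 TPM shrinks its fold change to 1.83, where the ratio of its mean levels is 2.81.

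Nlrp1b and Naip5 did not follow. Nlrp1b stood at 3.25, 4.30, 4.30 and 4.40 TPM in PBS and at 3.46, 3.70 and 3.33 TPM with sham sEVs, where the 3 values lay under all PBS libraries except replicate 1. Its log2 fold change was -0.17 (95% interval -0.37 to 0.034, limma adjusted p = 0.13), and -0.25 without PBS replicate 1, which passed the test (adjusted p = 0.0027). Naip5, the flagellin receptor, had 10.1 to 14.6 TPM in PBS and 11.6 to 13.1 TPM with sham sEVs. Its log2 fold change was -0.063 (95% interval -0.30 to 0.17, limma adjusted p = 0.62), and -0.17 without PBS replicate 1 (adjusted p = 0.044). Both directions depend on scaling, as given below.

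Mefv, which encodes pyrin, had too low a level to be tested with the rest. It stood at 0.0426, 0.0480, 0.0511 and 0.183 TPM in PBS and at 0.333, 0.300 and 0.252 TPM with sham sEVs. No sham-sEV library was as low as the highest PBS library. In a limma fit of all 32074 genes without the filter, its log2 fold change on the scale of TPM + 1 was 0.26 ± 0.045 (SE, adjusted p = 0.0014).

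Nek7, the kinase that binds NLRP3 during assembly, went the other way. It stood at 46.9, 61.7, 65.2 and 66.3 TPM in PBS and at 45.4, 44.4 and 42.8 TPM with sham sEVs, so the highest sham-sEV library was just under PBS replicate 1 and far under the other 3. Nek7 fell 1.34-fold, a log2 fold change of -0.42 ± 0.11 (SE, limma adjusted p = 0.0045). The fall did not pass the test after median-of-ratios scaling (log2 fold change -0.14, adjusted p = 0.17). Pycard, encoding the adaptor ASC, had a narrow spread, at 67.5, 64.9, 66.1 and 64.7 TPM in PBS and 76.7, 75.3 and 76.3 TPM with sham sEVs. It rose 1.15-fold (log2 fold change 0.21 ± 0.046 SE, limma adjusted p = 0.0020), a small difference with no overlap.

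The proteases and their common substrate rose together. Casp1 stood at 124, 175, 151 and 133 TPM in PBS and at 269.8, 295 and 309 TPM with sham sEVs. It rose 2.00-fold, a log2 fold change of 1.00 ± 0.10 (SE, limma adjusted p = 4.3e-06). Casp4, which encodes the lipopolysaccharide-binding caspase-11, stood at 32.4, 40.7, 35.0 and 34.3 TPM in PBS and at 94.8, 99.7 and 101.5 TPM with sham sEVs. Every sham-sEV library lay far above the highest PBS library. Casp4 rose 2.73-fold, a log2 fold change of 1.45 ± 0.072 (SE, limma adjusted p = 8.0e-09). On this scale no other member tested had a larger value, while the ratio of mean levels, without the added 1 TPM, was 2.77 for Casp4 and 2.81 for Nlrc4. Gsdmd, the pore-forming substrate, stood at 100.8, 102.8, 97.2 and 104.9 TPM in PBS and at 133, 137 and 137 TPM with sham sEVs. It rose 1.34-fold (log2 fold change 0.42 ± 0.049 SE, limma adjusted p = 1.4e-05).

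**Figure D2:**
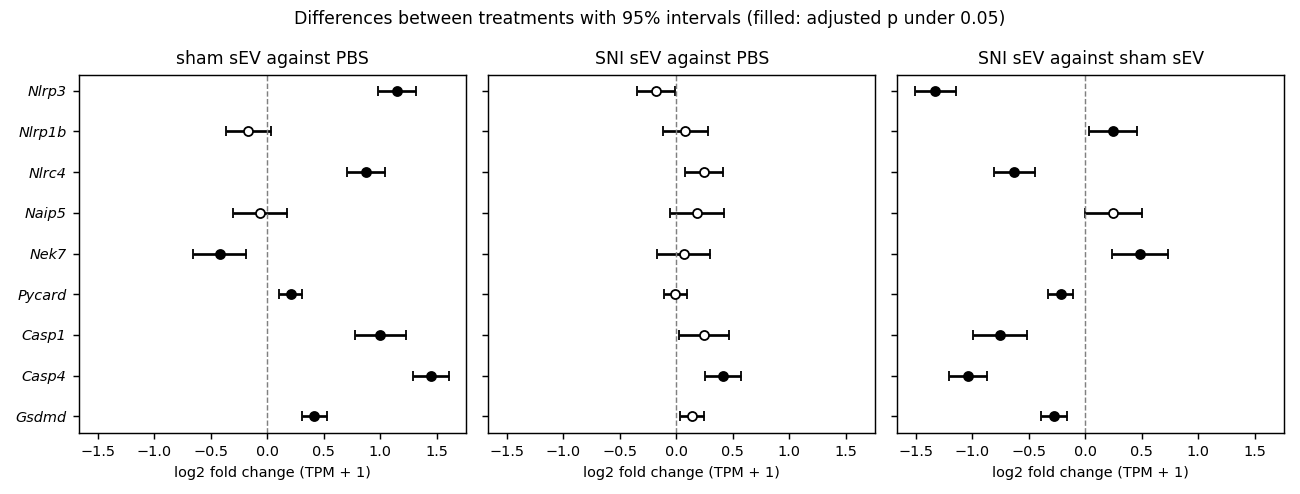
Log2 fold change on the scale of TPM + 1 (horizontal axis) for the 9 tested inflammasome genes in the 3 comparisons, with 95% intervals of the limma fit and filled points for an adjusted p under 0.05. Casp4 at 1.45 and Nlrp3 at 1.15 lie farthest right for sham sEVs against PBS, and Casp4 at 0.41 is the only filled point for SNI sEVs against PBS.

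With SNI sEVs against the same PBS libraries, Casp4 alone of the 9 members tested passed the test. It stood at 49.6, 47.2 and 46.0 TPM, above the PBS maximum of 40.7 TPM in each library. Casp4 rose 1.33-fold, a log2 fold change of 0.41 ± 0.072 (SE, limma adjusted p = 0.0060). With PBS and SNI-sEV libraries of the same number paired in a replicate block fitted to these groups alone, the log2 fold change was 0.40 and the call was lost (adjusted p = 0.059, within a range of 6.0e-05 to 0.059 over 21 alternatives). With the block fitted to all 10 libraries the adjusted p was 0.027. One called gene of 9 tested compares with 5.34% of all genes tested, 2.97% in the higher and 2.36% in the lower direction. The comparisons with PBS share the 4 PBS libraries, so their values are given side by side and were not correlated.

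For the other sensors, Nlrp3 stood at 31.5, 32.1 and 35.7 TPM, with a log2 fold change of -0.18 against PBS (95% interval -0.35 to -0.0096, limma adjusted p = 0.24). Without PBS replicate 1 it was -0.24 and passed the test (adjusted p = 0.037). Nlrc4 stood at 1.17, 1.28 and 1.17 TPM, above every PBS library, with a log2 fold change of 0.25 (95% interval 0.077 to 0.42, adjusted p = 0.10). Neither passed in the fit given here, and both passed with sample weights (adjusted p = 0.021 for Nlrp3 and 0.0036 for Nlrc4). Nlrp1b had 4.29 to 4.39 TPM and Naip5 13.7 to 15.1 TPM, both overlapping PBS, with log2 fold changes of 0.079 (95% interval -0.12 to 0.28) and 0.18 (95% interval -0.053 to 0.42). Mefv stood at 0.138, 0.133 and 0.165 TPM, above 3 of the 4 PBS libraries and under PBS replicate 4.

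Nek7 stood at 57.0 to 67.2 TPM and Pycard at 62.6 to 69.0 TPM, each overlapping PBS. The 95% intervals of their log2 fold changes were -0.17 to 0.30 and -0.11 to 0.093. Casp1 stood at 162, 178 and 176 TPM, and its lowest library overlapped the PBS maximum of 175 TPM. The log2 fold change of Casp1 was 0.25 (95% interval 0.023 to 0.47, limma adjusted p = 0.22). Without PBS replicate 2, the library with that maximum, it was 0.34 and passed (adjusted p = 0.033). Gsdmd stood at 119, 108 and 109 TPM, above every PBS library, with a log2 fold change of 0.14 (95% interval 0.032 to 0.25, adjusted p = 0.15). Casp1 and Gsdmd, like Nlrp3 and Nlrc4, passed with sample weights (limma adjusted p = 0.017 for Casp1 and 0.0050 for Gsdmd). In all, 3 of 10 members, Nlrc4, Casp4 and Gsdmd, were higher in every SNI-sEV library than in every PBS library, against 6.29% of genes tested, and none was lower, against 11.1% (17.3% in either direction). Nlrc4 was tested only because the vesicle groups were higher, so it adds nothing to this count. The 95% intervals given leave room for differences, and a missed threshold does not show that the levels were equal.

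Between the vesicle groups, the members that were high with sham sEVs were lower with SNI sEVs, and Nek7 and Nlrp1b were higher. Of 9 members tested, 6 fell and 2 rose, against 15.7% of all genes tested that fell and 49.9% that rose (65.6% in either direction). Nlrc4, 1 of the 6, was tested only because the vesicle groups were higher than PBS, so its call adds nothing to this count. The median log2 fold change was -0.28 over the members tested, again with Nlrc4 included, and 0.24 over all genes tested. Nlrp3 fell 2.51-fold (log2 fold change -1.33 ± 0.082 SE, limma adjusted p = 7.8e-08). Casp4 fell 2.05-fold (-1.04 ± 0.077 SE, adjusted p = 3.9e-07) and Casp1 1.69-fold (-0.76 ± 0.11 SE, adjusted p = 9.5e-05). None of these 3 genes overlapped between the vesicle groups. Nlrc4 fell 1.55-fold (adjusted p = 4.7e-05), Gsdmd 1.21-fold (adjusted p = 0.00069) and Pycard 1.16-fold (adjusted p = 0.0026) in the same limma fit.

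Nek7 rose 1.40-fold (log2 fold change 0.48 ± 0.11 SE, limma adjusted p = 0.0031), a call that was lost after median-of-ratios scaling (adjusted p = 0.065). Nlrp1b rose 1.19-fold (0.25 ± 0.097 SE, adjusted p = 0.044), close to the threshold. That call was lost in 9 of 19 alternatives, and the direction turned in 1 more, quantile normalization (-0.12, adjusted p = 0.17). Naip5 had a log2 fold change of 0.25 (95% interval -0.0065 to 0.50, adjusted p = 0.079), which passed without PBS replicate 1 (adjusted p = 0.0072) and in the replicate block (adjusted p = 0.041). In these 2 vesicle groups no member overlapped between all libraries, with 7 lower and 3 higher with SNI sEVs, against 19.4% and 58.8% of genes tested (78.1% in either direction). The 7 include Mefv, which is outside the genes tested, and Nlrc4, and neither adds to this count.

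The sign of the small differences rests on how libraries are scaled. TPM sets each library to the same total, and over all genes tested the median log2 fold change of sham sEVs against PBS was -0.25, which became -0.0024 after median-of-ratios scaling and -0.015 after quantile normalization. Relative to that shift, the rises of Nlrp3, Nlrc4, Pycard, Casp1, Casp4 and Gsdmd were larger, at 1.43, 1.06, 0.49, 1.29, 1.73 and 0.70 after median-of-ratios scaling, and all passed the test under each scaling. Nlrp1b turned from -0.17 to 0.060 after median-of-ratios scaling and to 0.18 after quantile normalization (limma adjusted p = 0.029 for the last). Naip5 turned from -0.063 to 0.20 under both (adjusted p = 0.070 and 0.046). Whether the amount of messenger RNA per cell differed between groups was not measured. In bulk samples fewer cells of a type and less RNA per cell cannot be told apart.

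**Figure D3:**
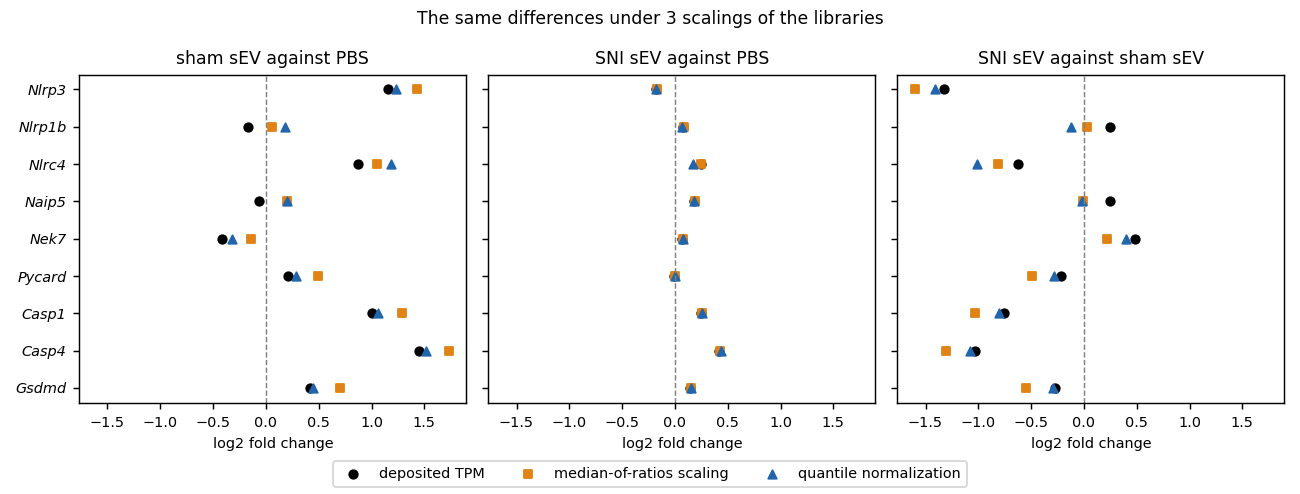
Log2 fold change of the 9 tested inflammasome genes (horizontal axis) with the deposited TPM, after median-of-ratios scaling and after quantile normalization, in the 3 comparisons. For sham sEVs the 6 members that rose stay right of 0 under all 3, Nlrp1b and Naip5 cross it, and for SNI sEVs against PBS the symbols nearly coincide.

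Ratios of 2 members within a library cancel any scaling between libraries, and 3 were formed after the values had been seen. Casp4 was 0.232 to 0.260 of Casp1 in PBS, 0.261 to 0.306 with SNI sEVs and 0.328 to 0.351 with sham sEVs. The 3 ranges did not overlap, though PBS and SNI sEVs nearly met, at 0.260 and 0.261. The ratios were not tested, so whether the share of Casp4 differed between PBS and SNI sEVs is not settled. Nlrp3 was 0.589 to 0.701 of Nek7 in PBS, 1.85 to 2.03 with sham sEVs and 0.477 to 0.566 with SNI sEVs, again without overlap. The sensor was thus scarcer than its partner kinase in 7 libraries and more abundant in the 3 with sham sEVs. Gsdmd was 1.47 to 1.62 of Pycard in PBS, below 1.67 to 1.74 with SNI sEVs and 1.74 to 1.82 with sham sEVs, and the last 2 groups overlapped at their edge.

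**Figure D4:**
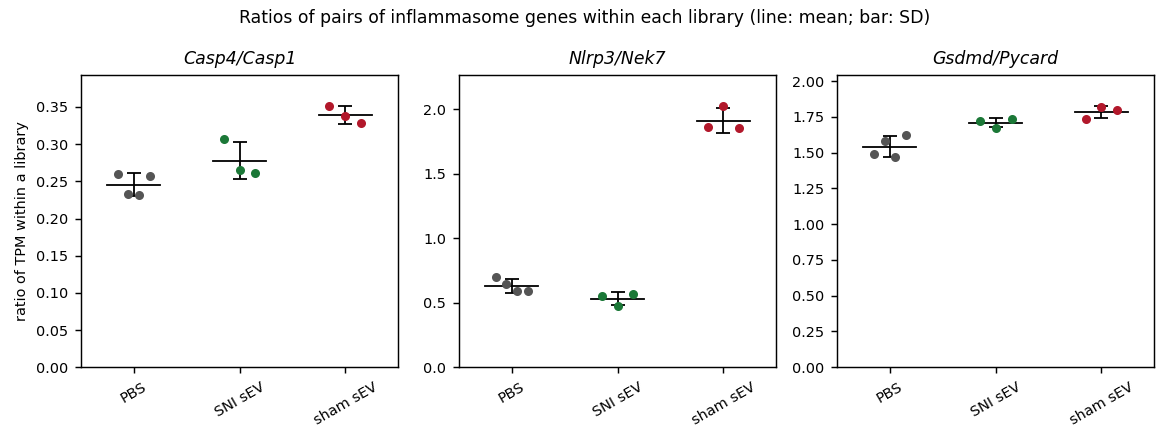
Ratio of TPM of Casp4 to Casp1, Nlrp3 to Nek7 and Gsdmd to Pycard in each library (vertical axes start at 0), with a line at the group mean and a bar of 1 SD, for PBS (n = 4), SNI sEVs (n = 3) and sham sEVs (n = 3). Nlrp3 to Nek7 lies at 1.85 or more in the sham-sEV libraries and at 0.701 or less in the others.

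The members did not share a single profile. Measured as the root mean square difference of log2(TPM + 1) profiles centred on each gene's mean over the 10 libraries, the closest pair was Nlrp1b and Naip5 at 0.082, followed by Pycard and Gsdmd at 0.10, Nlrp1b and Nek7 at 0.13 and Nlrc4 and Casp1 at 0.14. The pair farthest apart was Casp4 and Nek7 at 0.81. Casp1 and Casp4, although neighbours on chromosome 9, differed by 0.20. By the same measure over all genes tested, the genes nearest to Nlrp3 were Emilin2 at 0.067, Tmem120b at 0.068 and Adhfe1 at 0.083, and those nearest to Casp4 were Tnip3 at 0.053, Pnp at 0.064 and Bend6 at 0.065. For Casp1 they were Ripk2 at 0.039, Coa5 at 0.068 and Lztfl1 at 0.079, and for Gsdmd Bag1 at 0.034, Sltm at 0.038 and Trim41 at 0.049. Ripk2, the kinase downstream of the NOD receptors, had means of 16.9 TPM in PBS, 32.9 TPM with sham sEVs and 19.6 TPM with SNI sEVs. Profiles over the same 10 libraries share the large contrast of sham sEVs with the rest, so likeness is a description.

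The authors' deposited table of differential genes lists 2375 genes, each at least 2-fold with a false discovery rate (FDR) under 0.05 in at least 1 comparison, and 3 of the 10 members are in it. In the authors' deposited table, Nlrp3 was 2.22-fold higher with sham sEVs than in the control (FDR 0.00032) and 2.51-fold lower with SNI than with sham sEVs (FDR 0.00046). For Casp1 the authors' deposited table gives 2.00-fold (FDR 0.0026) and 1.69-fold (FDR 0.0017), and for Casp4 2.73-fold (FDR 0.00015) and 2.05-fold (FDR 0.00023), in the same directions. For SNI sEVs against the control the authors' deposited table has an FDR above 0.05 for all 3, which includes Casp4 at 1.33-fold (FDR 0.12), the gene that passed the limma test above. The authors' fold changes of these 3 genes equal those computed here on the scale of TPM + 1. They rest on the same libraries and are not a separate estimate. The test behind the authors' FDR is not given in the sources used here.

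Among other NOD-like receptors and sensors, 10 of 13 genes were tested, and 5 rose and 2 fell with sham sEVs against PBS, where 16.5% of all genes tested rose and 52.5% fell. The median log2 fold change of the list was 0.26, against -0.25 over all genes tested. Nod2 and Nod1, the receptors of bacterial peptidoglycan fragments, rose from means of 3.95 to 15.3 TPM and from 7.99 to 15.8 TPM, and Nlrc5, the transactivator of MHC class I genes, from 20.2 to 33.9 TPM. Nlrc3, a negative regulator of innate signalling, fell from 11.1 to 2.48 TPM. With SNI sEVs against PBS, 2 rose and none fell, namely Nlrc5 at 30.9 TPM (limma adjusted p = 0.023) and Nod2 at 4.99 TPM (adjusted p = 0.047). Over all genes tested, 2.97% rose and 2.36% fell with SNI sEVs against PBS. Between vesicle groups 3 were higher and 3 lower with SNI sEVs, beside 49.9% and 15.7% of all genes tested (65.6% in either direction). These counts became 1 and 5 after median-of-ratios scaling. The rise of Nlrp1a there (4.46 to 6.37 TPM, adjusted p = 0.0032) was lost under both other scalings.

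Interleukin-1 type products and their inhibitors were higher with sham sEVs, by very unequal amounts. Of 9 genes of this list, 6 were tested. All 6 rose with sham sEVs under each of the 3 scalings, where 16.5% of all genes tested rose with the deposited TPM. Their median log2 fold change was 1.47, against -0.25 over all genes tested. Il1b rose from 21.0 ± 5.04 to 2341 ± 150 TPM (limma adjusted p = 5.0e-10) and Il1a from 1.88 ± 0.551 to 309 ± 34.2 TPM (adjusted p = 9.8e-12). Il18 rose from 4.80 to 11.5 TPM, and Il18bp, whose product binds and blocks interleukin-18, from 2.31 to 10.6 TPM. On the scale of TPM + 1 Il1b and Il1a each rose 109-fold, beside 2.22-fold for Nlrp3 and 2.17-fold for Il18. With SNI sEVs 2 rose against PBS, Il18bp to 3.86 TPM (adjusted p = 0.0091) and Il1b to 45.1 ± 20.3 TPM (adjusted p = 0.033), and the other 4, which include Il1a at 1.96 TPM, did not pass. All 6 were lower with SNI than with sham sEVs, where 15.7% of all genes tested were. For SNI sEVs against PBS, 2.97% of all genes tested rose.

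Other caspases and death effectors were mixed, with 4 of 13 tested higher and 6 lower with sham sEVs, or 6 higher and 4 lower after median-of-ratios scaling. The share called was thus close to the 68.9% of all genes tested, and it says nothing particular about this list. Zbp1, whose product senses Z-DNA and Z-RNA, rose from 7.40 to 254 TPM, and Mlkl, the executor of necroptosis, from 3.39 to 21.9 TPM. Gsdme, another gasdermin, rose from 1.57 to 4.08 TPM and Casp2 fell from 12.2 to 5.88 TPM. With SNI sEVs Zbp1 at 39.7 TPM and Mlkl at 5.89 TPM were also higher than in PBS (limma adjusted p = 7.8e-06 and 0.0031), while Ripk3, the kinase upstream of MLKL, was lower (13.1 to 10.5 TPM, adjusted p = 0.035). Between vesicle groups 6 were higher and 4 lower with SNI sEVs, or 4 and 6 after median-of-ratios scaling. With the deposited TPM 49.9% of all genes tested were higher and 15.7% lower (65.6% in either direction).

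Triggers and modulators of NLRP3 were likewise mixed, with 5 of 19 tested higher and 7 lower with sham sEVs, or 9 and 6 after median-of-ratios scaling, again beside 16.5% and 52.5% of all genes tested. Syk, a kinase of immune receptor signalling, rose from 60.9 to 229 TPM and Trim30a from 39.8 to 155 TPM. The channel gene Panx1 fell from 31.2 to 8.97 TPM and Txnip, which binds thioredoxin, from 320.0 to 127 TPM. With SNI sEVs 2 were higher than in PBS and none lower, namely Trim30a at 87.5 TPM (limma adjusted p = 0.00048) and the ion channel gene Trpm2, at 3.00 against 1.59 TPM (adjusted p = 0.00053). Pstpip1, whose product binds pyrin, was at 3.52 TPM with sham sEVs and at 1.10 TPM with SNI sEVs (adjusted p = 7.8e-07). Between vesicle groups 7 were higher and 5 lower with SNI sEVs, or 6 and 7 after median-of-ratios scaling. With the deposited TPM 49.9% of all genes tested were higher and 15.7% lower. The share of the list called in either direction was close to the 65.6% of all genes tested, and it says nothing particular about this list. For SNI sEVs against PBS, 2.97% of all genes tested were higher and 2.36% lower.

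Of 16 tested genes of lipopolysaccharide sensing upstream of caspase-11, 11 were higher and 4 lower with sham sEVs, where 16.5% and 52.5% of all genes tested were, and their median log2 fold change was 1.08. The largest log2 fold changes were those of guanylate-binding proteins, which help caspase-11 reach lipopolysaccharide. Gbp3, Gbp5 and Gbp7 were under 1 TPM in PBS and were tested only because the vesicle groups were higher. Their calls thus add nothing to the counts of this list in any comparison, and the median of 1.08 includes them. Gbp2 rose from 4.81 to 113 TPM and Gbp3 from 0.847 to 35.6 TPM, with Gbp5 and Gbp7 rising from 0.605 to 46.1 TPM and from 0.657 to 26.2 TPM. With SNI sEVs 6 were higher than in PBS and none lower, among them Gbp2 at 10.99 TPM (limma adjusted p = 0.00020), Gbp3 at 2.86 TPM (adjusted p = 0.00011), Irgm1, from 50.7 to 101 TPM, and Irgm2, from 9.35 to 21.8 TPM. The 6 include Gbp3, Gbp5 and Gbp7, which do not add to this count. Of 12 transcription factors that act on inflammasome genes, 9 rose and 3 fell with sham sEVs, beside the same 16.5% and 52.5%, with a median of 0.79. Irf7 rose from 24.3 to 1098 TPM, Stat2 from 42.8 to 168 TPM and Nfkb2 from 20.3 to 54.5 TPM. With SNI sEVs 4 were higher than in PBS and none lower, among them Irf7 at 129 TPM, Stat2 at 105 TPM and Irf9, from 44.4 to 64.0 TPM (adjusted p of 0.00036 or less for each). Nfkb2 at 20.04 TPM did not pass, and it was lower than with sham sEVs (adjusted p = 2.5e-07), as was Relb, at 14.96 against 27.3 TPM. For SNI sEVs against PBS, 2.97% of all genes tested were higher and 2.36% lower. Between vesicle groups 10 of 16 and 8 of 12 were lower with SNI sEVs in these lists, and 4 and 2 were higher. The 10 again include Gbp3, Gbp5 and Gbp7, which do not add to the count. Over all genes tested 15.7% were lower and 49.9% higher (65.6% in either direction). After median-of-ratios scaling the first list had 12 lower and 1 higher, and the second 9 lower and 2 higher.

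**Figure D5:**
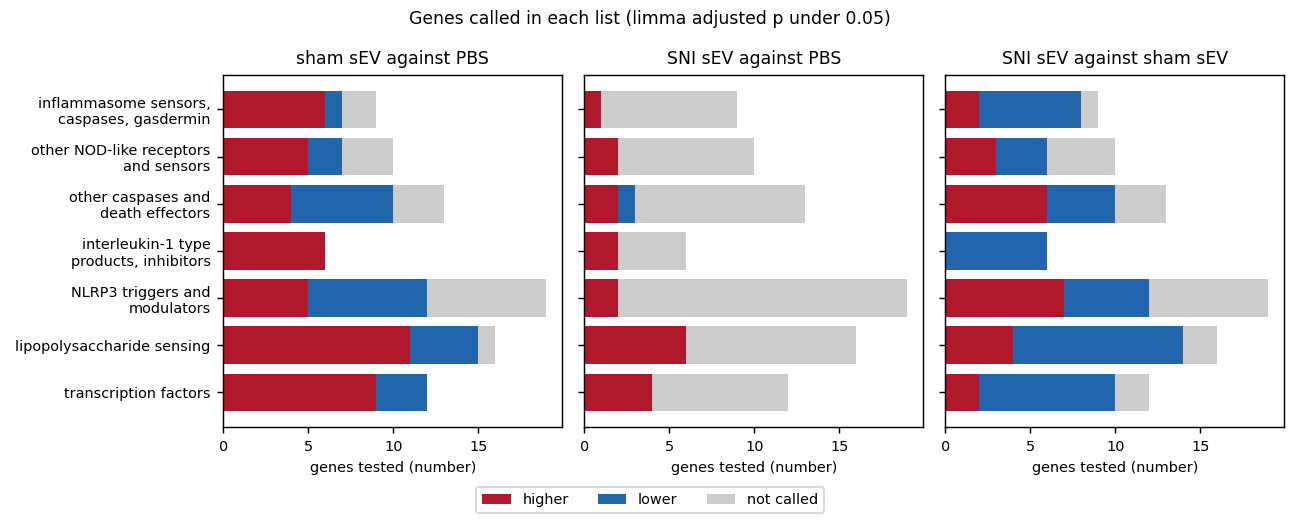
Number of tested genes (horizontal axis) that were higher, lower or not called by limma at an adjusted p under 0.05 in the inflammasome genes and 6 related lists, for the 3 comparisons. All 6 tested interleukin-1 type genes are higher for sham sEVs against PBS, and with SNI sEVs against PBS most genes of each list are not called.

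Markers of other cells moved with the sham-sEV group too. Of 8 astrocyte markers 7 fell, beside 52.5% of all genes tested, with a summed level of 145 to 166 TPM in PBS, 89.7 to 102 TPM with sham sEVs and 163 to 170 TPM with SNI sEVs, and of 8 oligodendrocyte markers 7 fell, from 480 to 545 TPM down to 320 to 359 TPM, with 517 to 591 TPM for SNI sEVs. After quantile normalization 3 astrocyte markers fell and 1 rose. The summed neutrophil markers were 6.77 to 10.8 TPM in PBS, 41.5 to 43.9 TPM with sham sEVs and 10.2 to 13.4 TPM with SNI sEVs, and 3 of them were tested. S100a8 rose with sham sEVs from a mean of 8.41 to 32.1 TPM, while Camp, at 0.102 and 6.13 TPM, and Mmp8, at 0.191 and 4.40 TPM, were tested only because they were high with sham sEVs. The defining neutrophil genes Ly6g and S100a9 were at 0 in PBS and SNI-sEV libraries and at means of 0.0158 and 0.0283 TPM with sham sEVs, and Ngp was at 0 with sham sEVs. Of the 12 microglia and macrophage markers 4 rose and 7 fell with sham sEVs, beside 16.5% and 52.5% of all genes tested. With SNI sEVs 2 rose, beside 2.97%. Neuron markers summed to 12.5 to 20.002 TPM, 13.6 to 16.2 TPM and 14.4 to 15.2 TPM in PBS, sham-sEV and SNI-sEV libraries. Lymphocyte markers summed to at most 1.41 TPM, and endothelial and fibroblast markers to 2.23 to 4.70 TPM. The part of these markers in the differences of the inflammasome genes was not tested.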

How the data were processed

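Per the labels' protocols, a column kit with DNase treatment gave total RNA, and a stranded kit for polyadenylated mRNA gave the libraries. The submitters' processing notes name bcl2fastq, BWA, Subread, featureCounts 2.0.2 and mm10. The role of each tool, the annotation and the strand setting are not given in the sources used here. Expression was deposited as TPM, which the authors scaled to a common total in all 10 columns. Since TPM holds no read totals, the depth is unknown, and counting intervals, detection limits and count tests were not possible. The second deposited table gives the authors' signed fold change and their FDR, read as an adjusted p-value, per the file headers.

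Samples were grouped by treatment label. The fit used limma 3.58.1 in R 4.3.3 on log2(TPM + 1), for 14806 genes whose mean over the libraries reached 1 TPM, with a mean for each group, 1 common spread and eBayes with trend. Tests were two-sided, adjusted by Benjamini-Hochberg over these genes, and called at 0.05. Adding 1 TPM understates the fold change of genes near 0. Errors of TPM are SD between libraries, and p-values measure the spread between these libraries alone. The scripts were tested on simulated data.

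The members, the related gene lists and the tests were chosen with earlier results of these data known. All members are named. Each related list gives up to 4 called genes per comparison, those with the largest absolute log2 fold change and at least 2 TPM on average in 1 group, some repeats between comparisons being left out. One gene that this rule takes is not reported here. Marker genes are those that define a cell type or were called, in part chosen after their values were seen. For Nlrp3, Casp1, Casp4 and Gsdmd the 3 nearest profiles are given without predicted genes.

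To check the pairing by replicate number, deviations from the group mean were correlated across genes. PBS and SNI-sEV libraries of the same number gave r = 0.154 to 0.363 in 3 of 3 pairs. The fit behind the calls given above left the number out, and only the replicate blocks used it. The block on PBS and SNI-sEV libraries alone rests on these data and not on the labels. The same check gave -0.0176 to 0.0512 for PBS with sham sEVs and 0.0172 to 0.0772 for the vesicle groups. No block was fitted to those pairs of groups alone. Since r reached 0.220 for PBS and SNI-sEV libraries of different numbers, the pairing is uncertain. Results were recomputed with a pseudocount of 0.1 or 0.5, with no filter or a filter at 5 TPM, after median-of-ratios scaling or quantile normalization, with robust spread or sample weights, on the compared groups alone, with a replicate block, and without each library in turn.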

Additional observations from a re-analysis of the deposited data

Results flagged for a closer look

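Of 10 groups of 4 PBS libraries tested, 1 per inflammasome gene, 2 held a library far from the others by Dixon's criterion, which chance meets in about 1 of 20 groups. Nlrp1b stood at 3.25 TPM in PBS replicate 1, with the other 3 PBS libraries at 4.30 to 4.40 TPM (gap of 0.913 of the range, above the 95% critical value). That library also stood apart on the second principal component, and without it Nlrp1b passed the limma test as lower with sham sEVs than in PBS (log2 fold change -0.25, adjusted p = 0.0027, within 0.0012 to 0.49 over 19 alternatives, of which both other scalings gave the opposite sign). Mefv stood at 0.183 TPM in PBS replicate 4, with the other 3 at 0.0426 to 0.0511 TPM (gap of 0.939 of the range). The level of Mefv is near 0 in every library, and TPM does not show how many reads it rests on.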

How the results depend on the processing

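Nlrp3, Nlrc4, Pycard, Casp1, Casp4 and Gsdmd kept their direction and their limma call with sham sEVs against PBS and with SNI against sham sEVs in all 20 alternatives run for each (19 for Nlrc4, which a mean of at least 5 TPM leaves out). With SNI sEVs against PBS, 1 member was called. That number was 5 with sample weights (4 higher and 1 lower), 1 to 2 with single libraries left out (2 without PBS replicate 1 or 2), 1 in the replicate block on all libraries and 0 in the replicate block on PBS and SNI-sEV libraries alone, which was chosen after seeing the data. Over all genes that comparison called 790, against 4002 with sample weights, 483 with the compared groups alone, 479 in the block on PBS and SNI-sEV libraries alone and 370 to 1155 with single libraries left out. In the replicate block on all libraries the members called numbered 7 and 9 in the comparisons with sham sEVs, where Naip5 was added (adjusted p = 0.041), and no other call changed. The split of all calls into higher and lower for sham sEVs against PBS, 2437 and 7768, became 4728 and 4579 after median-of-ratios scaling and 4307 and 4883 after quantile normalization. For SNI against sham sEVs 7388 and 2319 became 4250 and 4466, or 4373 and 4130. Among the members these scalings gave 6 higher and 0 lower, or 8 and 1, for sham sEVs against PBS, and 0 higher and 6 lower, or 1 and 6, for SNI against sham sEVs.

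The sign turned for 4 members, Nlrp1b, Naip5, Pycard and Nek7, with values given here as log2 fold changes. For sham sEVs against PBS, median-of-ratios scaling and quantile normalization gave 0.060 and 0.18 for Nlrp1b, and 0.20 and 0.20 for Naip5. For SNI against sham sEVs, quantile normalization gave -0.12 for Nlrp1b, and the scalings gave -0.0098 and -0.018 for Naip5. For SNI sEVs against PBS, Pycard was 0.0021 after quantile normalization and -0.048 to 0.021 with single libraries left out, Nek7 was -0.022 with sample weights and -0.047 to 0.13 with single libraries left out, and Nlrp1b was -0.0026 to 0.11 with single libraries left out. The cause was not tested. Genes under about 1 TPM, such as Mefv and Nlrc4 in PBS, rest on an unknown number of reads. With 3 to 4 libraries a group, differences smaller than the intervals given cannot be seen.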

Other observations

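Some genes that feed these pathways moved against the members with sham sEVs, and they were chosen here after their values were seen. A fall was common there, as 52.5% of all genes tested fell with sham sEVs against PBS. P2rx7, the ATP-gated channel that triggers NLRP3, fell from a mean of 26.6 TPM in PBS to 16.2 TPM with sham sEVs (limma adjusted p = 3.3e-05) and stood at 28.3 TPM with SNI sEVs. Tlr4, the surface receptor of lipopolysaccharide, fell from 28.0 to 17.9 TPM (adjusted p = 0.0028) and stood at 33.1 TPM with SNI sEVs. Irf8, a transcription factor of macrophages, fell from 162 to 86.4 TPM (adjusted p = 2.2e-08), and Irf2, which in mouse and human cells drives Gsdmd, from 11.3 to 7.74 TPM (adjusted p = 6.2e-05). These 4 falls passed the test under each of the 3 scalings.

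Casp8 and Naip2 moved with the members under each scaling, where 16.5% of all genes tested rose with sham sEVs with the deposited TPM. Casp8, an apoptotic protease that can also cut gasdermin D, rose from 45.3 to 68.5 TPM with sham sEVs (limma adjusted p = 2.1e-06) and Naip2, whose product binds a bacterial secretion rod protein, from 30.7 to 43.6 TPM (adjusted p = 0.0014). Whether reads of Naip2 are shared with other Naip genes was not tested. Ninj1, which ruptures the membrane after gasdermin pores form, had means of 195, 203 and 198 TPM in PBS, sham-sEV and SNI-sEV libraries and passed no test with the deposited TPM, but rose after median-of-ratios scaling with sham sEVs (log2 fold change 0.34, adjusted p = 0.0033). None of these genes passed the test with SNI sEVs against PBS.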
